A study of Mus musculus with 14 samples.

Results

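The 4 libraries described here are RNA-seq of control primary hippocampal cultures, out of 14 samples in the series, 8 of them RNA-seq. They are all the samples that the titles place in the group CTRL and were chosen by that label alone. The cultures were made from wild-type C57BL6 mouse pups at postnatal day 0 to 1. They were grown for 14 days in vitro in medium with 2% B27, a serum-free supplement for neurons, and then kept for 15 h with 0.1% DMSO, the solvent of the drug used elsewhere in the study. The series calls the 4 cultures biological replicates, and they carry the numbers 1 to 4. The labels do not say how many pups went into each culture, nor their sex or litter, so the spread below is that between these 4 samples. A dissociated culture keeps neither the layers nor the long-range inputs of the hippocampus. The question addressed is which transcripts such cultures contain, and how far 4 cultures of the same kind differ.

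The hippocampus is a cortical structure for memory, built of excitatory pyramidal and granule neurons that release glutamate and of fewer interneurons that release GABA. Glutamate acts on AMPA, kainate and NMDA receptors, which are ion channels of 4 subunits each, and on metabotropic receptors coupled to G proteins. GABA opens the chloride-conducting GABA-A receptors, pentamers assembled from a large subunit family, and also acts on GABA-B receptors. Cultures from newborn pups hold glia beside the neurons, mainly astrocytes, which take up glutamate and supply lipids and metabolites.

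Each library listed 43629 gene identifiers, with 14524916 to 19498189 reads counted on genes. Of these identifiers 26568 had a count in at least 1 library, and 13883 reached 1 CPM (counts per 1000000 gene counts of the library) in all 4. The latter held 12737 of 21021 protein-coding and 436 of 2949 long noncoding genes. This coding share is the background for the counts of list members at 1 CPM given below. Values given in a row below are for replicates 1, 2, 3 and 4 in that order, and ± is the SD over these 4. A CPM is a share of reads and grows with transcript length. No transcript lengths were used here, so every order between genes below is an order of reads and not of transcript numbers. The length of 1 gene is the same in all libraries. It cancels between them if it affects reads alike in each, which was not tested.

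Replicate 1 stood apart from the others: 585 to 837 of the 13883 genes differed at least 2-fold between it and another replicate, against 84 to 270 between the others. Of the 10096 genes with a mean of at least 10 CPM, 139 (1.38%) were at least 2-fold lower in replicate 1 than in every other library and 21 (0.208%) at least 2-fold higher. The corresponding counts were 5 lower and 6 higher in replicate 2, 0 and 0 in replicate 3, and 3 lower and 5 higher in replicate 4. A gene can reach a mean of 10 CPM through 1 high library, so the counts of higher genes depend in part on this filter. The replicates also differed in the sex chromosome genes. Xist, the long noncoding RNA that silences 1 X chromosome in female cells (ENSMUSG00000086503, chromosome X, 103460373 to 103483233), stood at 0.228, 422, 0.205 and 0.344 CPM. Ddx3y, an RNA helicase gene on the Y chromosome, stood at 299, 0.404, 253 and 238 CPM. Eif2s3y, Kdm5d and Uty followed the same pattern, at 0.0577 to 0.577 CPM in replicate 2 and at 81.7 to 156 CPM in the others. Replicate 2 thus had Xist reads with almost no reads on Y genes, and the other replicates the reverse. Sex cannot be told apart from any other property in which replicate 2 differs.

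The gene with the most reads in every library was Malat1, a nuclear long noncoding RNA (ENSMUSG00000092341, chromosome 19, 5795690 to 5802672). It had 24325, 22399, 19044 and 30541 CPM, highest in replicate 4. The protein-coding nuclear gene with the most reads was Gpm6a, a neuronal membrane glycoprotein of growth cones (ENSMUSG00000031517, chromosome 8, 54779434 to 55060878), with 4604, 4476, 4582 and 3973 CPM. Its relative Gpm6b had 2266 ± 87.4 CPM. Cpe, the carboxypeptidase that trims neuropeptide precursors, had 2363, 3811, 3261 and 3023 CPM and was lowest in replicate 1. Slc1a3, the astrocytic glutamate transporter GLAST, had 2116, 3457, 3179.6 and 2642 CPM and was lowest in the same replicate.

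Further genes with many reads encode cytoskeletal proteins. Sptan1 and Sptbn1, the spectrins under the plasma membrane, had 2699 ± 276 and 2182 ± 206 CPM. Map2, the microtubule protein of dendrites, had 2398, 1767, 1951 and 2152 CPM. Actb, cytoplasmic actin, had 2012 ± 109 CPM. Macf1, a very large protein that links microtubules to actin, had 1432, 1205, 1384 and 2281 CPM and was higher in replicate 4 than in any other. Kif5c, a motor protein of axonal transport, had 1498 ± 263 CPM. Apoe, the lipid carrier secreted by astrocytes, had 1522, 1948, 1919.7 and 2257 CPM, and Scd2, a fatty acid desaturase, had 1909 ± 103 CPM. Sparcl1, a matrix protein that astrocytes secrete, had 1938 ± 186 CPM. The chaperones Hspa8 and Hsp90aa1 had 1884 ± 75.1 and 1458 ± 69.0 CPM. Eef1a1, the elongation factor that brings tRNA to the ribosome, had 2490.4, 2454, 2460.0 and 2142 CPM, but it has near-identical copies in the genome and its reads are uncertain. Reads were spread over many genes: the 10 leading genes took 5.85% to 6.74% of all counts, and 1084 to 1173 genes together took 50%.

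By gene class, protein-coding genes took 93.3% ± 0.629 of the counts. Long noncoding RNA took 3.33% ± 0.544, or 2.73% to 4.02% by library, lowest in replicate 3 and highest in replicate 4. Malat1 alone had a mean of 24077 CPM out of 33290 CPM for this class. It was lowest and highest in the same replicates, so the class share mainly reflects this 1 gene. The share of alignments outside any annotated gene was 24.9%, 19.9%, 20.6% and 26.8% in the same order of replicates, and it too was highest in replicate 4. Whether the 2 shares have a common source was not tested. After Malat1 the long noncoding RNA with the most reads was Meg3, an imprinted RNA, with 2719.6, 1792, 1801 and 2242 CPM. Snhg14, a host of small nucleolar RNAs, had 913, 619, 604 and 809.8 CPM. Miat had 382, 259, 269 and 391 CPM and Kcnq1ot1, an imprinted antisense RNA, 182, 126, 136 and 269 CPM. Malat1, Meg3, Snhg14, Miat and Kcnq1ot1 were higher in replicates 1 and 4 than in replicates 2 and 3, but not every long noncoding RNA was. Tug1 had 244, 180.4, 209 and 194 CPM, with replicate 4 below replicate 3. Neat1, the scaffold of nuclear paraspeckles, had 33.3, 71.7, 56.9 and 122 CPM and was lowest in replicate 1. Snhg11 had 236 ± 23.6 CPM.

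Short structured RNAs were also present in these libraries of total RNA depleted of ribosomal RNA. Rpph1, the RNA of ribonuclease P, which cuts tRNA precursors, had 2167, 3247, 2087 and 3092 CPM. Rmrp, the related RNA of ribonuclease MRP, had 384, 588, 392 and 501 CPM. Rn7sk, which holds the elongation factor P-TEFb inactive, had 371, 572, 492 and 663 CPM. Rn7s1, an RNA of the signal recognition particle, had 129.8, 323, 232 and 319.7 CPM. These 4 RNAs were higher in replicates 2 and 4 than in replicates 1 and 3. Rn7s2, the other RNA of the signal recognition particle among the leading noncoding genes, was not, with 49.5, 118, 81.5 and 74.7 CPM and replicate 4 below replicate 3. The 925 genes for small nuclear RNA took 0.117% to 0.231% of the counts and the 1047 for small nucleolar RNA 0.0248% to 0.0455%. All 59 nuclear genes annotated as ribosomal RNA were at 0 in all libraries. Reads that aligned to several positions were assigned to no gene, so these values do not show that ribosomal RNA was absent.

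The mitochondrial genome took 1.81% ± 0.101 of the counts, very unevenly over its genes. mt-Co1, a subunit of cytochrome c oxidase, had 11974, 9162, 10420.2 and 9800.2 CPM and mt-Rnr2, the large ribosomal RNA, 4283, 6044, 6688 and 5561 CPM. mt-Cytb, cytochrome b, had 378 ± 44.0 CPM. mt-Co2, mt-Co3 and mt-Atp6, further genes of the respiratory chain and of ATP synthase, had only 1.19 ± 0.247, 1.14 ± 0.379 and 0.158 ± 0.0399 CPM. Reads that aligned to several positions, 15.2% to 19.0% of the counted alignments, were not assigned to any gene, and the nuclear genome holds copies of mitochondrial sequence. How much of the unevenness comes from such reads was not tested.

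5 host transcripts of microRNAs were measured, although the mature microRNAs themselves were not. Mir124a-1hg and Mir124-2hg, hosts of the neuronal miR-124, had 47.2 ± 4.76 and 28.3 ± 0.918 CPM. Mir99ahg had 48.9 ± 7.91 CPM. Mir22hg (ENSMUSG00000085148, chromosome 11, 75461539 to 75466690) had 24.2, 25.8, 21.7 and 22.9 CPM. Mir9-3hg (ENSMUSG00000097023, chromosome 7, 79500026 to 79534403) is a host of miR-9, a microRNA of neural progenitors, and had 12.5, 15.7, 13.9 and 15.8 CPM. The last 2 spans hold hairpins whose mature strands are shown to identify what these hosts carry. They are RefSeq sequences on GRCm38.p6, 5′ to 3′, with the seed (bases 2 to 8, which pair with targets) in capitals:
mmu-miR-9-5p: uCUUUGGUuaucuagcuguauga
mmu-miR-9-3p: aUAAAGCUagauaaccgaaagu
mmu-miR-22-5p: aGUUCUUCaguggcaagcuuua
mmu-miR-22-3p: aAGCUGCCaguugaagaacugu
The miR-9 strands lie at chr7:79505279-79505301 and chr7:79505318-79505339, the miR-22 strands at chr11:75463734-75463755 and chr11:75463772-75463793, all on the plus strand. The 4 seeds differ from each other.

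The cell makeup was described with 15 lists of marker genes, summed in CPM per library. In bulk RNA, fewer cells of a type and less RNA per cell cannot be told apart. Sums of different lists also differ in the number and length of their genes and give no cell numbers. The astrocyte list (15 genes) summed to 8072, 10362, 9919 and 7807 CPM and 12 general neuronal genes to 6432, 5537, 5671 and 5501 CPM. Replicates 2 and 3 had the higher astrocyte sums and replicate 1 the highest neuronal sum. Red blood cell genes were nearly absent, at 0.462 to 0.799 CPM, with Hbb-bt and Slc4a1 at 0 in all 4 libraries.

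**Figure D1:**
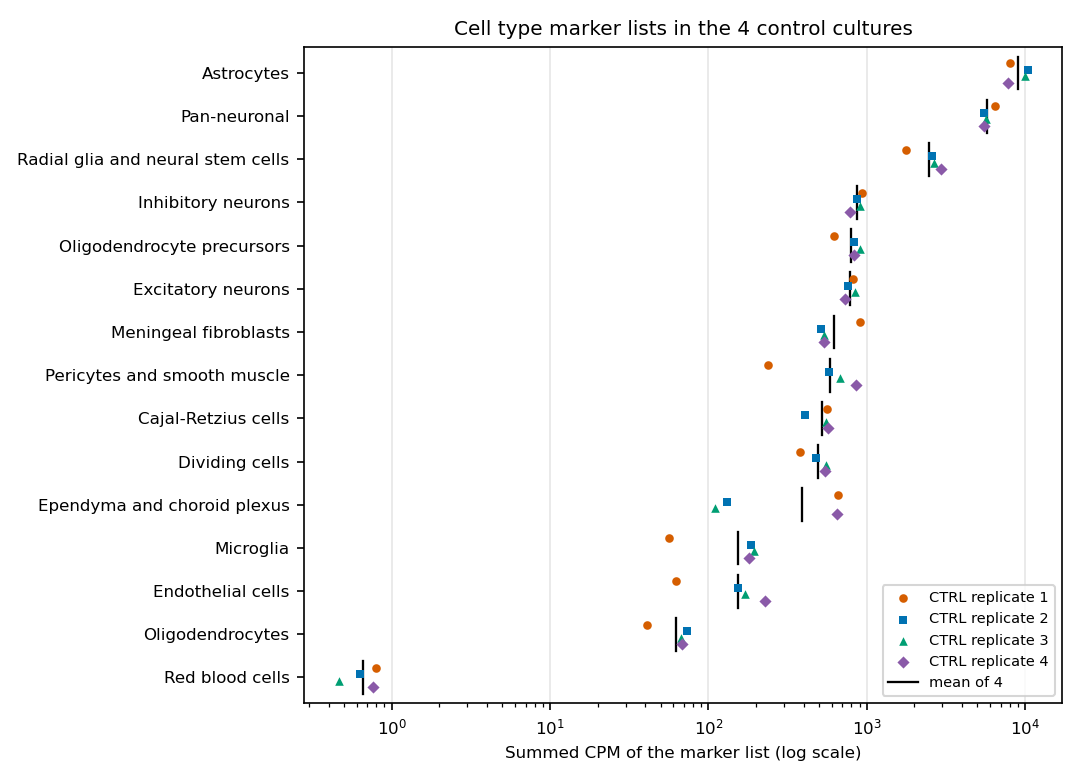
Summed CPM (log axis) of 15 cell type marker lists in each control library, with the mean of 4 as a line. Astrocyte and general neuronal genes lead in all 4 libraries, replicate 1 is lowest for microglia (56.6 CPM) and highest for meningeal fibroblasts (900.1 CPM), and the high ependyma and choroid plexus sums of replicates 1 and 4 rest on Ttr, which takes 73.2% of that list's mean sum.

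Neuronal markers were present in all cultures. Beside Map2, the vesicle proteins Syt1 and Syp had 961 ± 56.6 and 563 ± 68.0 CPM. Snap25, a membrane fusion protein of synaptic vesicles, had 927, 940.1, 940.2 and 774 CPM. Rbfox3, the splicing factor known as NeuN, had 44.5, 46.5, 47.3 and 42.2 CPM. The neurofilament Nefl varied more, at 452, 374, 244 and 220.3 CPM, and Nefm with it, at 20.4, 15.8, 8.51 and 8.74 CPM. Tubb3, neuronal tubulin, was highest in replicate 1, at 308, 172, 199.7 and 189.7 CPM. All 12 neuronal genes reached 1 CPM in all libraries, with a median biological coefficient of variation (BCV, the spread of a gene's true level between libraries beyond counting noise, fitted by edgeR) of 0.127. The median over the fitted genes with a mean of at least 10 CPM was 0.125, and over all 14781 fitted genes 0.147, so these markers varied about as much as other genes of such levels.

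Excitatory and inhibitory neurons were both represented. The 12 excitatory markers summed to 814, 757, 838 and 727 CPM and the 12 inhibitory ones to 929.6, 868, 909 and 787 CPM. Neurod6, a transcription factor of pyramidal neurons, had 205, 184, 158 and 139 CPM, and Slc17a7, the vesicular glutamate transporter VGLUT1, 122, 112, 129 and 111 CPM. Camk2a, the alpha subunit of CaM kinase II, had 139, 114, 158 and 135 CPM. Among inhibitory markers Gad1 and Gad2, which make GABA from glutamate, had 333, 335, 309 and 259.6 and 210.1, 196, 215 and 185 CPM. Erbb4, the neuregulin receptor of interneurons, had 246 ± 15.6 CPM. The progenitor factors Dlx2 and Dlx5 were low, at 0.685 to 1.49 and 0.343 to 1.1 CPM, while Dlx1 had 24.8 ± 2.14 CPM.

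Markers of the hippocampal fields were examined next. All 7 markers of CA1, all 7 of CA2, all 7 of CA3 and 7 of 9 of dentate granule cells reached 1 CPM in all 4 libraries. So did 12737 of all 21021 protein-coding genes, so such counts alone do not show where the cells came from. Wfs1, a membrane protein of CA1 pyramidal cells, had 28.8, 29.2, 33.2 and 25.3 CPM. Necab2, a calcium-binding protein of CA2, had 55.1, 47.2, 48.5 and 44.7 CPM and Rgs14, a CA2 regulator of G protein signals, 7.14, 5.94, 6.31 and 3.58 CPM. Grik4, a kainate receptor subunit typical of CA3, had 18.7, 13.3, 14.6 and 16 CPM. Prox1, the identity factor of granule cells, had 35.3, 25.7, 30.8 and 26.4 CPM, and Calb1, calbindin, 192, 248, 190.3 and 150.2 CPM. Of 21 genes for neuron types of other regions, 5 reached that level and 4 (Hcrt, Oxt, Avp and Agrp, hypothalamic peptides) were at 0. The other-region list summed to 16.7 to 28.6 CPM. Several field markers are not exclusive to neurons, so the list sums do not give the share of each field.

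Genes of interneuron classes ranged widely. Cnr1, the cannabinoid receptor of CCK basket cells and other neurons, had 528, 442, 464 and 402 CPM. Reln, a secreted guidance protein of Cajal-Retzius cells and later of interneurons, had 406, 303, 442 and 466 CPM. The neuropeptide Sst, somatostatin, had 42.9, 63.8, 41.7 and 43.6 CPM, and Npy, neuropeptide Y, 27.4, 61.7, 41.3 and 35.5 CPM. Both were highest in replicate 2, and for Sst the other libraries lay between 41.7 to 43.6 CPM. Vip had 25.7, 33.5, 26.9 and 19.6 CPM. Pvalb, the calcium buffer of fast-spiking interneurons, had only 0.343, 1.33, 0.615 and 0.895 CPM. Calb2, calretinin, had 122, 57.1, 62.8 and 59.2 CPM and was highest in replicate 1. Of the Cajal-Retzius list, Trp73, Lhx1 and Lhx5 were at most 0.807 CPM in any library, and Reln took 77.6% of its sum.

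Astrocyte genes beside Slc1a3 were led by Gfap, the intermediate filament of astrocytes, with 1683, 2348, 2058 and 1670.2 CPM. Glul, glutamine synthetase, had 1086, 1335, 1287 and 847 CPM, Slc1a2, the transporter GLT-1, 1065, 939, 1072 and 737 CPM, and Aqp4, the water channel of astrocytic endfeet, 850.3, 941, 879 and 715 CPM. Gja1, connexin 43, had 276 ± 45.3 CPM, but Gjb6, connexin 30, only 1.66, 1.38, 1.18 and 0.482 CPM. Gpr37l1, a receptor of astrocytes, had 11.6, 33.6, 27.1 and 20.2 CPM and was lowest in replicate 1. Genes of radial glia and neural stem cells summed to 1766, 2601, 2660.0 and 2932 CPM. Vim, vimentin, and Nes, nestin, 2 filaments of immature and reactive glia, had 577, 1430.3, 1474 and 1787 and 138, 186, 231 and 328 CPM, both lowest in replicate 1 and highest in replicate 4. Fabp7, the fatty acid-binding protein of radial glia and astrocytes, had 869, 739, 711 and 556 CPM, with the reverse order of these 2 replicates. Eomes, a marker of intermediate progenitors, was at 0 to 0.171 CPM.

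Genes of dividing cells had reads in all cultures: all 15 genes of the list reached 1 CPM in every library, as did 12737 of 21021 protein-coding genes. Top2a, the topoisomerase of replicating cells, had 104, 136, 162 and 157 CPM and Mki67, the antigen Ki-67, 49.6, 51.8, 77.5 and 81.3 CPM. Replicate 1 was the lowest library for 13 of the 15, and for 39.9% of all 14718 genes with a mean of at least 1 CPM.

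The oligodendrocyte lineage was mostly represented by its precursors. The precursor list summed to 621, 835, 912 and 829 CPM, of which Ptprz1, a receptor phosphatase that astrocytes and radial glia also express, took 55.1%. Pdgfra, the PDGF receptor of precursors and of fibroblasts, had 132, 316, 285 and 236 CPM. Olig2, a lineage factor, had 23.5, 45.3, 45.5 and 41.1 CPM, and Sox10, a factor of the whole lineage, 1.94, 11, 9.18 and 7.37 CPM. Myelin genes were low. Mbp, myelin basic protein, had 11.9, 29.5, 20.0 and 19.3 CPM, Mog, a late myelin protein, 0.154 to 0.482 CPM, and Opalin had 0 in replicates 1 to 3 and 0.138 CPM in replicate 4. Replicate 1 was the lowest library for 6 of the 9 precursor genes and for 3 of the 5 myelin list genes with a mean of at least 1 CPM, against 39.9% of all 14718 genes. Replicate 2 was the lowest for the other 3 precursor genes.

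Microglia, the macrophages of the brain, set replicate 1 apart. Their 14 genes summed to 56.6, 185, 194 and 180.4 CPM. C1qa, a complement protein, had 4.28, 28.1, 28.1 and 24.9 CPM (ENSMUSG00000036887, chromosome 4, 136895916 to 136898844). Csf1r, the receptor for the survival factor CSF1, had 1.66, 11.1, 14.6 and 11.4 CPM, and Trem2, a lipid receptor, 1.66, 10.4, 10.5 and 12.6 CPM. Replicate 1 was the lowest library for all 12 members with a mean of at least 1 CPM and at least 2-fold below every other library for 11 of them. Of all 14718 genes with that mean, 514 (3.49%) were at least 2-fold below every other library there. Tmem119, a microglial surface protein below that mean, went the opposite way, with 2.51, 0.115, 0.462 and 0.207 CPM. Tissue macrophage genes outside the list were named after their values were seen. They are among the 5 genes with a mean of at least 10 CPM furthest below the others in replicate 1. Their low values there were thus fixed by this choice and add no support. Mrc1, the mannose receptor of border macrophages, had 6.91, 123, 125 and 97.5 CPM and Lyz2, lysozyme, 15.0, 153, 124 and 159 CPM. Lcp1, a leukocyte actin bundler, had 1.66, 15.9, 16.4 and 16.2 CPM and Stab1, a scavenger receptor, 6.34, 50.3, 68.5 and 55.4 CPM.

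The reactive glia list had its lowest sum in replicate 1, with 832, 2096, 2050.2 and 2342 CPM, of which Vim took 72% of the mean. C3, the complement protein of reactive astrocytes and microglia, had 45.7, 214, 164 and 186 CPM, and S1pr3, a receptor for sphingosine phosphate, 33.5, 102, 110.4 and 98.0 CPM. Serpina3n, a secreted protease inhibitor, had 61.6, 126, 99.7 and 71.2 CPM. Osmr, the oncostatin M receptor, had 60.5, 116, 108 and 117 CPM. Replicate 1 was lowest for 7 of the 10 members with a mean of at least 1 CPM, against 39.9% of all 14718 genes, and at least 2-fold below every other for 4, against 3.49%. The interferon response list summed to 66.8, 88.2, 109 and 120.0 CPM, of which Ifit2 took 57.5%, with 40.9, 51.9, 52.8 and 75.5 CPM, and 5 of 12 members reached 1 CPM in all libraries. The microglial sum was also lowest in replicate 1 (56.6, 185, 194 and 180.4 CPM), and its part in the values of both lists was not tested.

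Vessel genes also differed between cultures. Cldn5, the tight junction protein of endothelium, was at 0, 0.173, 0 and 0.0688 CPM, and Cdh5, VE-cadherin, at 3.37, 0.115, 0.256 and 0.0688 CPM, so both of these defining endothelial markers were near 0 in replicates 2 to 4. They do not stand for the whole endothelial list, of which 4 genes had a mean of at least 1 CPM. Replicate 1 was the highest library for 2 of the 4 and the lowest for 2, against 23.0% and 39.9% of all 14718 genes. Slco1a4, an organic anion transporter of brain endothelium and of astrocytes, made up 69.5% of that list's sum, at 37.8, 98.6, 113 and 177 CPM. Acta2 and Tagln, contractile proteins of smooth muscle, had 112, 314, 381 and 452 and 101, 222, 248 and 358 CPM and were lowest in replicate 1. Rgs5, a pericyte marker, had 4.0, 4.96, 4.26 and 2.96 CPM, and Kcnj8 was at 0 outside replicate 1 (0.457 CPM).

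Meningeal fibroblast genes went the other way. Col3a1, a fibrillar collagen (ENSMUSG00000026043, chromosome 1, 45311538 to 45349706), had 283, 7.44, 9.59 and 6.61 CPM. Igf2, a growth factor of the meninges, had 114, 7.21, 11.2 and 7.23 CPM, Col1a2, a collagen I chain, 82.2, 11.5, 10.4 and 6.82 CPM, and Slc6a13, a GABA transporter of the leptomeninges, 39.3, 3.75, 5.90 and 2.41 CPM. Of the 11 members with a mean of at least 1 CPM, 8 were at least 2-fold higher in replicate 1 than in every other library, against 83 (0.564%) of all 14718 genes. Such a mean can be reached through replicate 1 alone, among members and among all genes, so both counts depend in part on the excess they describe. Pdgfra, Ogn and Fn1 were the exceptions. Ogn, osteoglycin, had 71.5, 107, 145 and 205 CPM and was lowest in replicate 1. Other genes of the greatest excess in this replicate were Tgfbi, a matrix protein with 74.7, 3.29, 3.80 and 1.58 CPM, Tbx18, a factor of mural cells and meninges with 37.2, 2.25, 3.28 and 1.72 CPM, Lama4, a laminin chain with 73.5, 5.94, 5.69 and 2.82 CPM, and Apod, a lipocalin with 216, 19.7, 24.9 and 13.6 CPM.

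The choroid plexus marker Ttr split the replicates in a different way. Ttr, transthyretin, the main secreted protein of the plexus, had 615, 10.4, 9.49 and 501 CPM, high in replicates 1 and 4 and low in 2 and 3. Clic6, an ion channel protein of the plexus, followed it, at 6.45, 0.461, 0.410 and 4.68 CPM. Foxj1, the master factor of motile cilia in ependyma, had 18.3, 56.0, 51.5 and 74.0 CPM and did not follow Ttr: it was lowest in replicate 1. Ccdc153, another ciliary gene, had 3.08, 16.7, 8.72 and 18.3 CPM. Of the 7 members of this list with a mean of at least 1 CPM, replicate 1 was the lowest library for 5, against 39.9% of all 14718 genes. Replicate 1 was at least 2-fold below every other for 4, against 3.49% of all genes. Folr1, a folate receptor, had 7.14, 10.6, 10.5 and 14.7 CPM and Kl, klotho, at most 0.577 CPM.

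**Figure D2:**
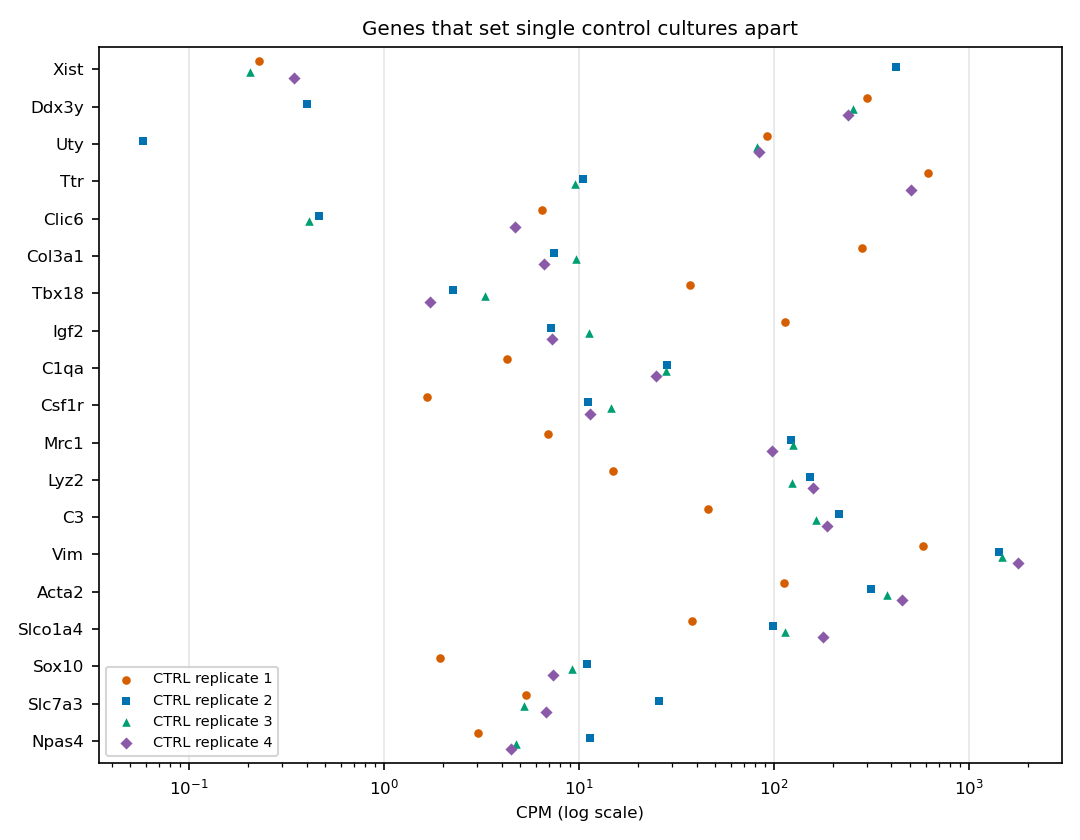
CPM (log axis) in each control library of 19 genes that differ between replicates. They were picked as examples after their values were seen, and not by rank of spread. Xist is high in replicate 2 alone (422 CPM), Col3a1, Tbx18 and Igf2 in replicate 1 alone, Ttr and Clic6 in replicates 1 and 4, and C1qa, Csf1r, Mrc1 and Lyz2 are lowest in replicate 1.

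Activity-regulated genes placed replicate 2 apart. Immediate early genes are transcribed within minutes of neuronal activity, and 16 of the 18 listed reached 1 CPM in all libraries. Replicate 2 was the highest library for 14 of the 17 with a mean of at least 1 CPM, against 29.3% of all 14718 genes. Npas4, a transcription factor induced by calcium influx, had 3.03, 11.4, 4.72 and 4.48 CPM. Fos had 16.4, 37.9, 26.3 and 20.5 CPM, Arc, a synaptic capsid-like protein, 7.19, 16.1, 9.59 and 8.74 CPM, and Nr4a1, a nuclear receptor, 5.25, 11.9, 5.03 and 4.75 CPM. Nptx2, a secreted pentraxin that gathers AMPA receptors and is itself induced by activity, had 8.28, 22.2, 7.28 and 6.75 CPM. Slc7a3, a transporter of cationic amino acids, had 5.37, 25.8, 5.23 and 6.75 CPM. Sap30bpos, a gene without a RefSeq class, and Gm25835, a small nucleolar RNA gene, were also highest in replicate 2. They had 3.03, 26.4, 16.8 and 8.19 and 8.28, 22.5, 8.98 and 7.71 CPM. Homer1, a postsynaptic scaffold with a short activity-induced form that gene counts cannot separate, had 272, 226, 183 and 166 CPM and was highest in replicate 1. Jun had 50.8, 60.2, 63.0 and 62.9 CPM, lowest in replicate 1. Replicate 2 is also the culture with Xist reads, and these differences cannot be told apart from sex.

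The receptors, channels and transporters of neurons were described by family. Across 33 families with 279 members, 190 members reached 1 CPM in all 4 libraries and 10 were at 0 in all. Of all 21021 protein-coding genes 12737 reached 1 CPM in all 4. A neighbour in the order of reads was taken to differ beyond the spread where all libraries had the same order and the ranges did not overlap. This held for the first against the second member in 28 families, and for 124 of 244 neighbouring pairs overall. With 4 libraries an exact 2-sided sign-flip test cannot go below 0.125, so no p-values are given.

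AMPA receptors carry fast excitation. Gria2, the subunit that makes them impermeable to calcium (ENSMUSG00000033981, chromosome 3, 80681450 to 80804227), took the most reads, 1767, 1454, 1391 and 1326 CPM. Gria1 had 711, 553, 625 and 573 CPM, Gria4 229, 189, 199 and 189 CPM and Gria3 129, 110.0, 129.8 and 111 CPM. The ranges of these 4 genes did not overlap, and replicate 1 was highest for all but Gria3. The ratio of Gria2 to Gria1 reads was 2.49, 2.63, 2.22 and 2.31. Kainate receptor genes were lower in reads. Grik2 led with 126, 98.9, 114 and 126 CPM, then Grik5 with 33.9 ± 3.78 and Grik1 with 27.8 ± 2.18 CPM, whose ranges overlapped. The delta receptor gene Grid1, whose product binds synaptic organizers, had 54.0 ± 3.49 CPM.

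NMDA receptors need Grin1 in every assembly and take their kinetics from Grin2 subunits. Grin2b, the subunit typical of young synapses (ENSMUSG00000030209, chromosome 6, 135713221 to 136173615), had 642, 410.4, 537 and 544 CPM, lowest in replicate 2. Grin1 had 114, 116, 122 and 121 CPM and varied little, with a BCV of 0.0951. Grin2a, the subunit of more mature synapses, had 89.4, 74.8, 79.7 and 81.1 CPM, and Grin3a 58.8, 51.3, 67.2 and 54.5 CPM. The ratio of Grin2a to Grin2b reads was 0.139, 0.182, 0.148 and 0.149. Grin2c and Grin2d had at most 1.74 and 2.34 CPM. The ratio of reads of Dlg4 (PSD-95) to Dlg3 (SAP102), scaffolds that hold NMDA receptors in mature and young synapses, was 0.778, 0.805, 0.821 and 0.857.

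Auxiliary subunits set the traffic and gating of AMPA and kainate receptors. Frrs1l, an assembly factor of AMPA receptors, had 336, 256, 294 and 251 CPM, and Neto2, a partner of kainate receptors, 269, 224, 229 and 222 CPM. Frrs1l was above Neto2 in every library, but their ranges overlapped. Cpt1c had 60.5 ± 2.37 CPM. Cacng2, stargazin, had 19.6, 19.9, 24.6 and 20.8 CPM and Cnih2, cornichon 2, 40.0, 31.4, 32.9 and 32.3 CPM. Cacng7 and Cacng8 were listed at 0 in all libraries, which over the 68881098 counted reads allows up to 0.0436 CPM (3 reads, counting error only). Their relative Cacng6 was at 0 as well, and these genes lie side by side on chromosome 7 from 3332027 to 3435667. Ndufa3, a complex I gene beyond them, had 50.2 ± 1.16 CPM. Why these genes hold no read was not tested.

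Metabotropic glutamate receptors were dominated by Grm5, a postsynaptic receptor coupled to Gq, with 509.8, 392, 411 and 347 CPM. Grm7, a presynaptic receptor, had 94.6, 106, 88.5 and 89.2 CPM and Grm3, also found on astrocytes, 38.4, 47.3, 39.8 and 25.2 CPM. The ranges of Grm5, Grm7 and Grm3 did not overlap. Grm2 had 1.03 to 2.25 CPM, and Grm6, a receptor of retinal bipolar cells, was at 0.

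Of the 19 GABA-A receptor genes 12 reached 1 CPM in all libraries. The beta subunit gene Gabrb2 had 244, 208, 202 and 188 CPM and the alpha subunit gene Gabra4 137, 139.5, 133 and 109 CPM, without overlap. Gabra5, the subunit of extrasynaptic hippocampal receptors, had 102, 81.0, 78.3 and 66.5 CPM. Gabra2, typical of young neurons and of axon initial segments (ENSMUSG00000000560, chromosome 5, 70958392 to 71095849), was the exception in its spread, at 227, 96.7, 172 and 89.8 CPM. Its replicates fell into a higher pair, 1 and 3, and a lower pair, 2 and 4. Its BCV was 0.322, against a family median of 0.13. The range of Gabra2 overlapped those of Gabrb2 and Gabra4, so its place in the order is not fixed by these libraries. Gabrd, the subunit of tonic receptors of granule cells, had 4.62, 8.01, 7.39 and 5.09 CPM. Gabra6, a cerebellar subunit, had reads in replicate 1 alone, at 0.0571 CPM, and Gabrr3 was at 0.

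**Figure D3:**
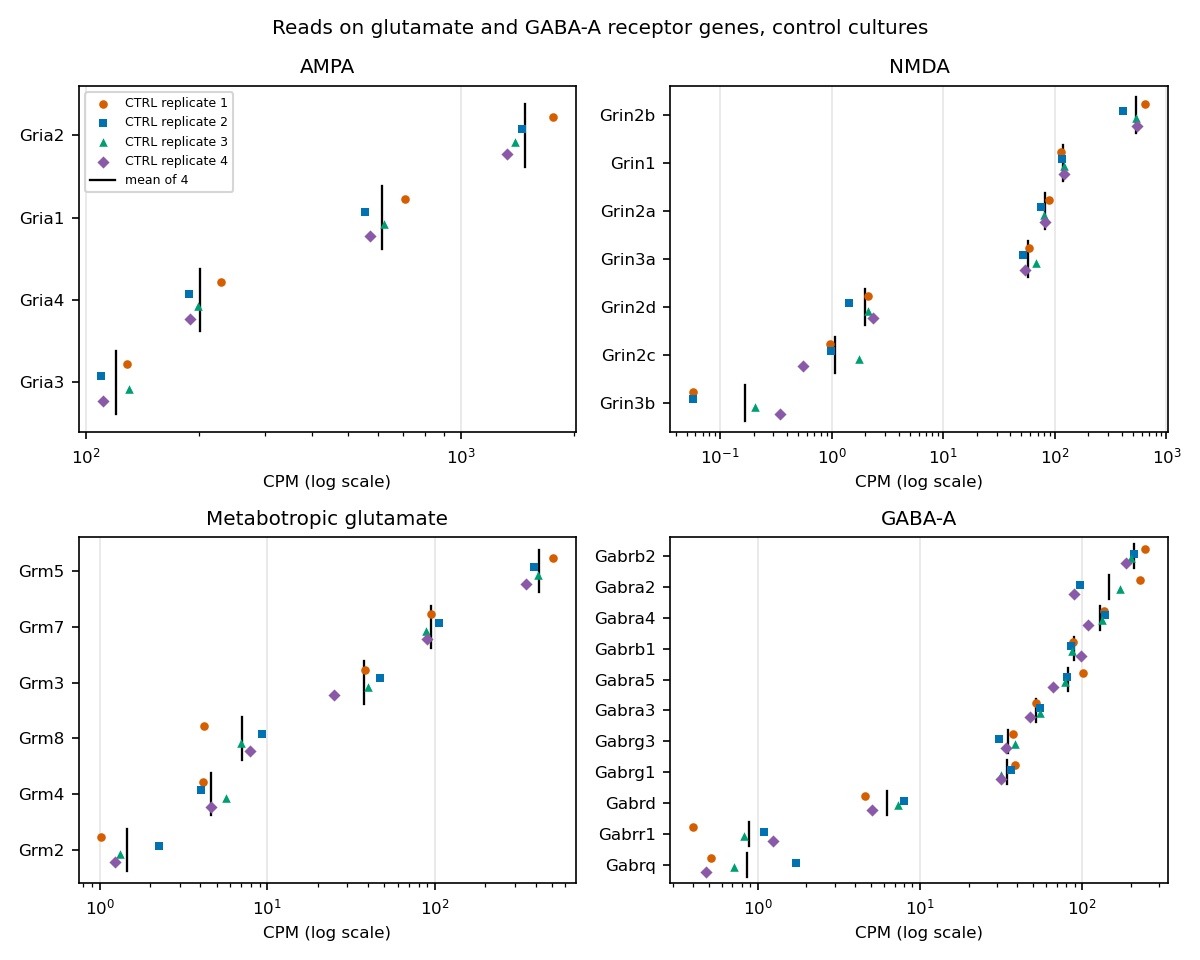
CPM (log axis) of AMPA, NMDA, metabotropic glutamate and GABA-A receptor genes in each control library, with the mean of 4 as a line and genes at 0 in any library not drawn. Some members are not shown. Gria2, Grin2b and Grm5 lie above the other genes of their panels in all 4 libraries, and Gabra2 spreads from 89.8 to 227 CPM.

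The GABA-B receptor needs both its subunits, and Gabbr1 had 443, 392, 433 and 363 CPM and Gabbr2 210.4, 162, 207 and 186 CPM. For glycine receptors, Glrb, the subunit that binds gephyrin, had 202, 206, 179 and 149.9 CPM and Glra2, the alpha subunit of immature neurons, 61.8, 45.4, 43.1 and 33.4 CPM, with non-overlapping ranges. Glra1, the adult spinal subunit, was at 0. Nicotinic receptors were led by Chrnb2, with 45.8, 44.3, 46.3 and 39.7 CPM, and Chrna7, with 30.8, 28.1, 23.3 and 26.1 CPM. Of the 16 nicotinic genes 4 reached 1 CPM in all libraries, and Chrnd, a muscle subunit, was at 0. Among muscarinic receptors Chrm1 had 28.7, 28.2, 31.1 and 26.9 CPM and Chrm3 22.0, 24.1, 25.8 and 22.8 CPM.

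Monoamine receptors took few reads. Htr1a, the serotonin autoreceptor that hippocampal neurons also carry, had 42.0, 23.6, 36.5 and 28.3 CPM, and Htr2c 20.0, 20.4, 14.0 and 17.9 CPM, while Htr3b was at 0. The dopamine receptor list summed to 6.85 to 12.7 CPM, of which Drd1 had 4.05, 9.69, 6.15 and 5.09 CPM. For adrenergic receptors Adra2a and Adrb1, with 12.2, 7.90, 12.1 and 9.91 and 6.45, 9.74, 9.69 and 11.3 CPM, could not be put in an order, and Adra2b was at 0. Oprl1, the nociceptin receptor, had 59.6, 43.7, 49.0 and 43.6 CPM, whereas Oprm1 and Oprk1, the mu and kappa opioid receptors, had at most 0.923 and 0.0577 CPM. Adora1, the adenosine A1 receptor, had 90.3, 81.6, 84.4 and 86.4 CPM. P2X receptors, channels opened by ATP and partly of microglia, had 19.5 to 33.2 CPM in sum, with P2rx4 at 6.39, 9.17, 9.03 and 8.95 CPM.

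Voltage-gated sodium channels carry the action potential. Scn2a, the channel of young axons (ENSMUSG00000075318, chromosome 2, 65620764 to 65767447), had 823, 687, 734 and 709.7 CPM and took 65.8% of the reads of the 10 alpha genes. Scn3a, typical of embryonic neurons, had 192, 147, 169 and 158 CPM. Scn8a, which dominates mature initial segments and nodes, had 143, 102, 115 and 119 CPM, and Scn1a, the channel of many interneurons, 104, 73.5, 74.0 and 75.2 CPM. Scn8a was above Scn1a in every library, but the ranges overlapped. The order was the same in all cultures, and its ratios varied little: Scn2a to Scn3a was 4.28, 4.68, 4.35 and 4.48, and Scn8a to Scn2a 0.174, 0.149, 0.156 and 0.167. Scn10a and Scn11a, channels of sensory neurons, had at most 0.0577 and 0.207 CPM. Of the beta subunits Scn2b had 268, 267, 271 and 222 CPM and Scn3b 164, 149.6, 178 and 146 CPM, and Scn4b had at most 3.0 CPM.

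Calcium channels were led by Cacna1e, the R-type pore, with 253, 183, 194 and 222 CPM. The L-type Cacna1c and the N-type Cacna1b followed with 95.6, 71.9, 86.0 and 94.5 and 97.5, 64.5, 81.8 and 90.3 CPM, in no fixed order. The P/Q-type Cacna1a had 49.3, 40.0, 51.8 and 60.4 CPM. Replicate 2 was the lowest library for 7 of the 8 alpha1 genes with a mean of at least 1 CPM, against 21.4% of all 14718 genes. It was the lowest for 0 of 4 beta and 2 of 4 alpha2delta genes. Cacna1s, the muscle channel, had 0.346 to 0.685 CPM. Among the cytoplasmic beta subunits Cacnb4 had 115, 112, 112 and 107 CPM, with the others between 33.0 and 56.2 CPM. Of the alpha2delta subunits, which bring the pore to the membrane and bind gabapentin, Cacna2d1 had 689, 496, 641 and 641 CPM and Cacna2d3 133, 126, 125 and 117 CPM.

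Potassium channels were many and individually modest. Of 40 voltage-gated genes 31 reached 1 CPM in all libraries, and the list sum varied little, at 1438, 1352, 1413 and 1312 CPM. Kcnq3, a subunit of the M current that restrains repetitive firing, had 135, 149, 149 and 148 CPM, with a BCV of 0.0952, and Kcnd3, a channel of the A current, 116, 121, 150.1 and 152 CPM, in no fixed order with Kcnq3. Kcnf1, a subunit silent on its own, had 47.0, 107, 79.2 and 57.3 CPM, highest in replicate 2 and lowest in replicate 1. Kcnma1, the BK channel, had 85.5, 66.2, 77.5 and 80.3 CPM, above the sodium-activated Kcnt2 in 3 of 4 libraries.

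Kcnj3, a subunit of the channels that G proteins open, had 115, 108, 93.1 and 87.2 CPM and led the inward rectifiers beyond the spread. Kcnj10, Kir4.1 of astrocytes, had 26.2, 18.5, 30.4 and 41 CPM, highest in replicate 4 and lowest in replicate 2. Among two-pore channels, which set the resting potential, Kcnk1 had 74.3, 127, 124 and 118 CPM and Kcnk2, TREK-1, 37.6, 53.6, 51.2 and 75.0 CPM, and both were lowest in replicate 1. Kcnk16 and Kcnk18 were at 0. Of the HCN channels of the pacemaker current Hcn2 had 24.7, 21.0, 22.7 and 21.1 CPM, Hcn3 9.42, 7.32, 8.10 and 8.88 CPM and Hcn4 2.80, 2.19, 2.77 and 2.62 CPM, with no overlap between them.

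**Figure D4:**
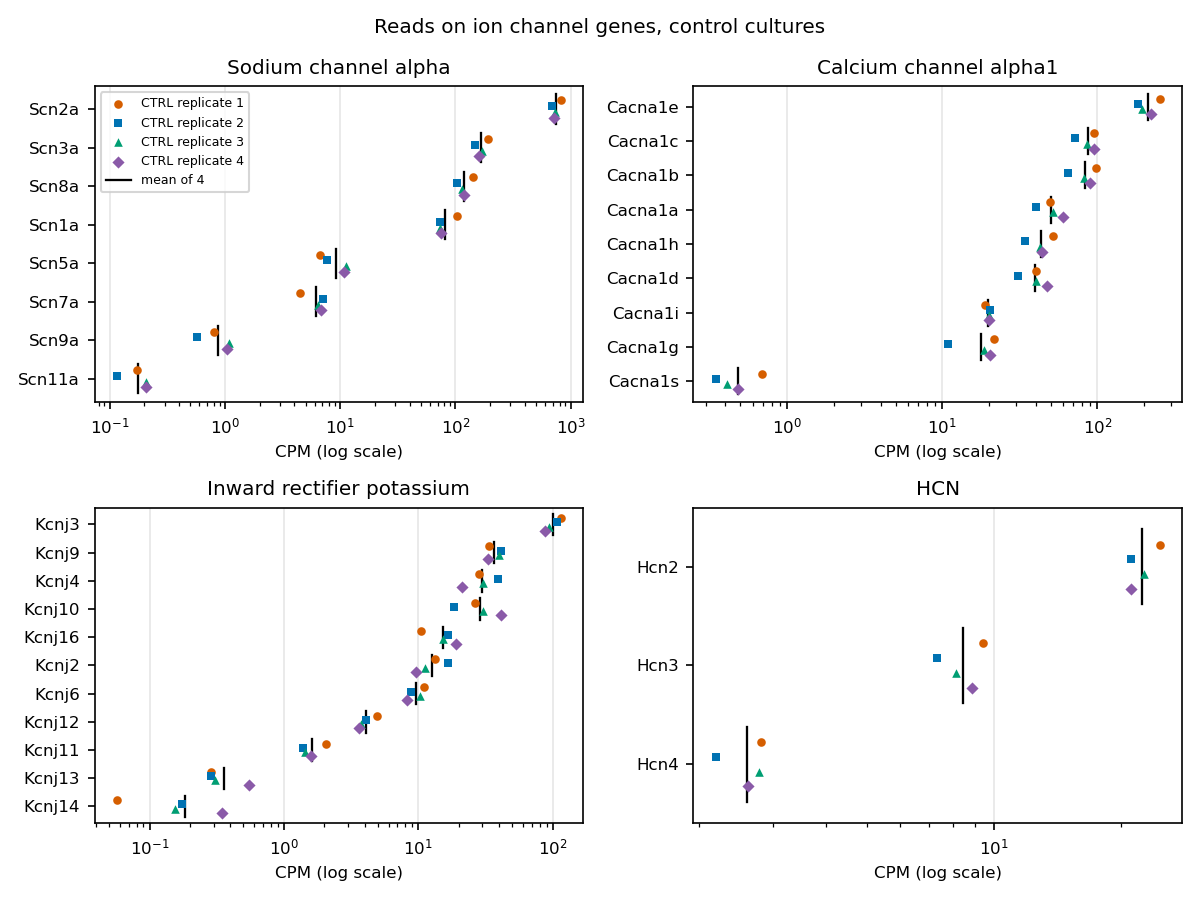
CPM (log axis) of sodium channel alpha, calcium channel alpha1, inward rectifier potassium and HCN channel genes in each control library, with the mean of 4 as a line and genes at 0 in any library not drawn. Some members are not shown. Scn2a, Cacna1e and Kcnj3 lead their families in every library, and replicate 2 is lowest for 7 of the 8 calcium channel alpha1 genes with a mean of at least 1 CPM.

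Transporters fill vesicles and clear the transmitters. Slc17a7 took more reads than Slc17a6 (VGLUT2, 43.2, 45.8, 36.6 and 34.5 CPM) in all libraries, by 2.45 to 3.53 times, and Slc32a1, the vesicular GABA transporter, had 19.4, 17, 21.0 and 17.7 CPM. Carriers of monoamines and acetylcholine (Slc18a1, Slc18a2 and Slc18a3) had at most 0.404 CPM. Of the plasma membrane glutamate transporters, the ratio of Slc1a2 to Slc1a3 reads was 0.503, 0.272, 0.337 and 0.279, highest in replicate 1. The neuronal Slc1a1 had 143, 136, 133 and 119.8 CPM. Slc6a11, the astrocytic GABA transporter GAT-3, had 88.3, 57.0, 78.3 and 57.6 CPM and was highest in replicate 1.

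Chloride cotransporters determine whether GABA inhibits. Slc12a5 (KCC2), the neuronal exporter that appears as neurons mature, had 168, 146, 165 and 148 CPM, and Slc12a2 (NKCC1), an importer that glia also express, 126, 110.1, 115 and 132 CPM. Their ratio of reads was above 1 in all libraries, at 1.33, 1.33, 1.44 and 1.12, and the ranges of the 2 genes did not overlap. Calm3 and Calm2, genes for the calcium sensor calmodulin, had 2306, 2107, 2077 and 1957 and 1555, 1898, 1465 and 1365 CPM. The kinase that calmodulin activates at synapses, CaM kinase II, was led by Camk2b, with 530.0, 396, 486 and 434 CPM. Camk2d had 189.6, 197, 199.8 and 188 CPM and Camk2g 153, 154, 161 and 159 CPM. Camk2a was the last of the 4 in mean reads, and Camk2a to Camk2b was 0.261, 0.288, 0.326 and 0.310. Gad1 to Gad2 was 1.59, 1.71, 1.44 and 1.41.

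L3mbtl1, the chromatin reader after which the study is titled (ENSMUSG00000035576, chromosome 2, 162942333 to 162977806), had 9.54, 9.05, 10.3 and 11.8 CPM in these cultures. It belongs to a family with MBT domains, folds that bind methylated lysines of histones, and all 10 listed members reached 1 CPM in all libraries. L3mbtl3 led with 49.8, 38.4, 45.5 and 44.1 CPM, followed by L3mbtl2 with 38.9, 41.6, 39.4 and 33.9 CPM and Mbtd1 with 31.3, 32.7, 36.1 and 40.8 CPM. L3mbtl1 was the seventh of the 10 in mean reads. Its BCV of 0.166 was near the family median of 0.147.

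Most genes varied less than the markers of microglia, meninges and choroid plexus. The common BCV of the 4 libraries was 0.170, and 0.116 without replicate 1. Leaving out any other replicate gave 0.173 to 0.199. Gene by gene, 91 of 14781 fitted genes had a BCV of at least 0.5. Among genes with a mean of at least 10 CPM the highest were Col3a1 (1.16), Ttr (1.14), Tgfbi (1.1) and Kdm5d (1.0), the last from the Y chromosome. The next were Lama4, Tbx18, Igf2, Apod, Slc6a13 and Col1a2, at 0.779 to 0.956, all highest in replicate 1. A mean of 10 CPM can be reached through 1 high library. Col3a1, Tgfbi, Lama4, Tbx18 and Slc6a13 passed it only in this way, with at most 9.59 CPM in any library but replicate 1. Igf2 and Col1a2 also owed it to replicate 1, with 7.21, 11.2 and 7.23 and 11.5, 10.4 and 6.82 CPM in replicates 2 to 4. Xist, Ddx3y, Eif2s3y and Uty did not pass the filter on low counts and have no BCV. The lowest BCV values were nearly equal to each other. Pdzd8, a protein of membrane contacts, had 145, 147, 146 and 146 CPM, and Golga2, a Golgi matrix protein, 121, 122, 124 and 122 CPM. Mmp16, a membrane metalloprotease, had 125, 126, 128 and 127 CPM. Others of the lowest 10 were Cdc23, Golph3, Ubtf, Fnip1, Stt3a, Pdxdc1 and Tlk2, with BCV values of 0.0931 to 0.0942.

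**Figure D5:**
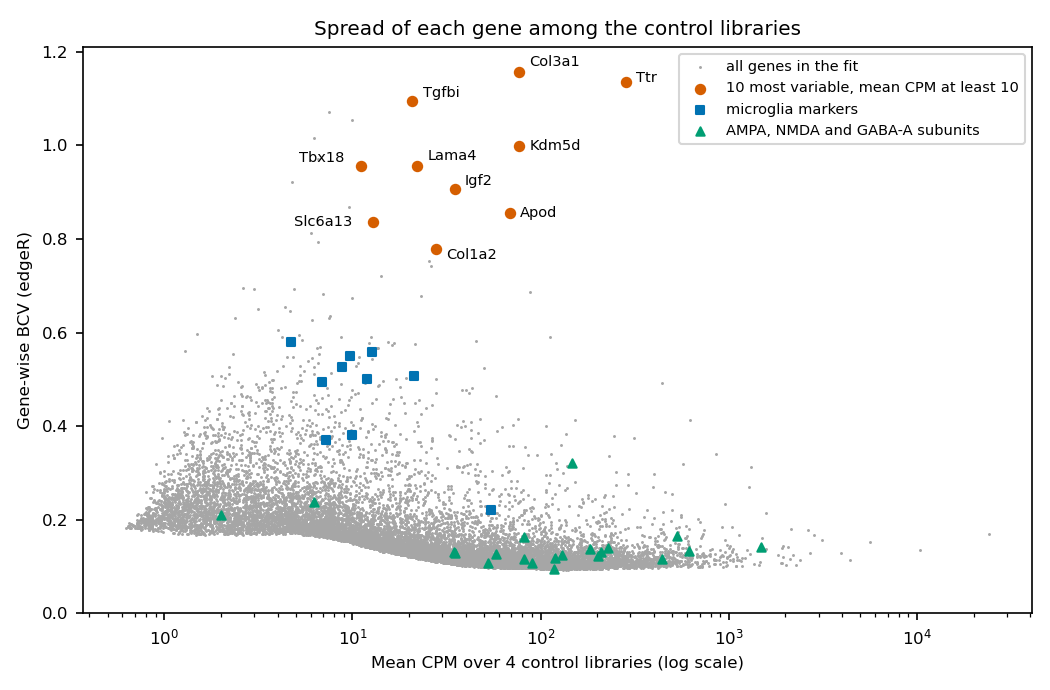
Gene-wise BCV against mean CPM (log axis) for the 14781 genes in the edgeR fit, with 3 groups of genes marked. Microglia markers (blue squares) lie mostly above a BCV of 0.35, the receptor subunits (green triangles) below 0.25 apart from Gabra2, and the 10 most variable genes of at least 10 CPM reach 1.16.

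Replicate 4 had its own small set. Gm42418, classed as a pseudogene and known to overlap ribosomal RNA sequence, had 164, 326, 319 and 955 CPM. How many of its reads come from ribosomal RNA was not tested. Ccn5, a matricellular protein, had 13.8, 30.1, 44.0 and 84.8 CPM, Col8a2, a collagen, 6.17, 13.5, 18.6 and 34.6 CPM, Cmya5, a muscle protein, 6.79, 8.48, 10.9 and 24.6 CPM and Pgm5, a protein of muscle adhesions, 17.1, 7.21, 14.7 and 36.6 CPM. Acta2 and Tagln were highest in the same library. In replicate 3 the genes furthest above the mean of the others were Lyve1 and Stab1, receptors of border macrophages, with 2.51, 13.8, 27.6 and 18.0 CPM for Lyve1, Cxcl5, a chemokine with 3.54, 24.7, 29.2 and 9.09 CPM, Cd38 and Lox. None of these exceeded every other library 2-fold.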

How the data were processed

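The authors deposited 1 table per library with raw counts for each Ensembl gene. Per the labels' protocols, libraries were made with the ScriptSeq v2 kit from 15 ng of total RNA after RiboZero removal of ribosomal RNA. The submitters' processing notes name genome build mm10 and, without roles, Bowtie2 2.2.4, CASAVA 1.8, HTSeq 0.6.1 and TopHat2 2.0.9. The annotation release and strand setting were not given in the sources used here. Hence reads of overlapping or antisense genes cannot be told apart, and near-identical gene copies are uncertain. The 5 summary lines (no feature 19.9% to 26.8%, not unique 15.2% to 19.0%, ambiguous 0.617% to 0.675% of counted alignments) were left out. CPM used the total gene count of each library. Symbols were matched for 42462 of 43629 identifiers, and 33318 had a RefSeq class (GRCm38.p6). Genes were ordered by CPM in place of the planned level per kb, because no transcript lengths were used here.

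BCV came from edgeR 4.0.16 in R 4.3.3 (estimateDisp, intercept only, TMM, filterByExpr) and was tested on simulated data. DESeq2 1.42.0 size factors were an alternative, with TMM-scaled sizes, a protein-coding denominator, other filters and each replicate left out. No group was compared. Some genes are not reported here. No library was a copy of another (chi-square per degree of freedom at least 9.74). The members and the gene lists were chosen with earlier results of these data known. Genes were named by rule: the 15 genes and 15 coding genes with most reads, the 3 leading members of each list and members at 0, fixed pairs, L3mbtl1, the 10 most and 10 least variable genes of at least 10 CPM, and the 5 genes most above the others in each library. Any further gene was picked with its values in view.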

Additional observations from a re-analysis of the deposited data

Results flagged for a closer look

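A list sum or a gene is given here where the gap between 1 replicate and its nearest neighbour, divided by the range of the 4, exceeded Dixon's 95% critical value. Chance flags about 1 in 20 such groups. It held for 6 of 59 list sums, 0 of 6 gene classes, 0 of 12 ratios and 28 of 225 named genes. Genes had partly been named for their large or small spread.

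Replicate 1 was the outlying library in 20 of the 28 genes. It was low for microglia, with a list sum of 56.6 CPM, C1qa at 4.28 CPM and C1qc at 2.00 CPM. It was low for the oligodendrocyte list, at 40.9 CPM, and for its member Cnp, an enzyme of myelin, at 16 CPM. It was high for meningeal fibroblasts, with a list sum of 900.1 CPM. Their collagens Col3a1 and Col1a2 had 283 and 82.2 CPM, Igf2 had 114 CPM and Slc6a13 39.3 CPM. The further matrix and mesenchymal genes Lama4, Tgfbi, Tbx18 and Apod had 73.5, 74.7, 37.2 and 216 CPM. The two-pore potassium channels summed to 158.7 CPM, the lowest of the 4. Kcnq3, a subunit of the M current, was low at 135 CPM, as were P2rx4 at 6.39 CPM and Osmr at 60.5 CPM. Neto2 was high at 269 CPM and Calb2 at 122 CPM. Man1a, a mannosidase used as a CA1 marker, had 72.8 CPM against 109.5 to 114 CPM in the others. Ubtf, Golph3 and Stt3a, with 133, 126 and 165 CPM, were flagged although their whole ranges were only 133 to 143, 126 to 134 and 165 to 173 CPM.

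Replicate 2 was high for Xist, at 422 CPM, and low for the Y gene Kdm5d, at 0.577 CPM. It was high for Slc7a3, Nptx2 and Gm25835, at 25.8, 22.2 and 22.5 CPM. The Cajal-Retzius list, mostly Reln, was low at 404.8 CPM, and so were the chloride cotransporters, at 355.5 CPM. In replicate 4, Snap25, Scn2b and Eef1a1 were low, at 774, 222 and 2142 CPM.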

How the results depend on the processing

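Under the other settings, 212 recomputed values moved by less than their limit, 0 changed direction and 2 moved by more. The limit was 1 SD for list sums and ratios and 1.5 times for counts of genes and families. For the common BCV it was a standard error computed from the fits with 1 replicate left out. The fall from 0.170 to 0.116 without replicate 1 lay just inside that limit. It is counted in the 212 and shows no stability. For list sums and ratios with 1 replicate left out, staying within 1 SD was fixed in advance. Dropping 1 of 4 values cannot move their mean by that much, so these cases in the 212 show no stability. With nuclear protein-coding genes alone as the denominator, list sums were 7.10% to 7.48% higher, and the sum for excitatory neurons was 839.9 CPM in place of 784 ± 50.9 CPM and for interneuron subclasses 1586 CPM in place of 1480.1 ± 80.0 CPM. TMM-scaled sizes and DESeq2 size factors moved list sums by -0.664% to 0.836%. Leaving out each replicate in turn moved them by -23.4% to 23.9%, left 13937 to 14227 genes at 1 CPM or more in every remaining library, and kept the first member in 31 to 33 of 33 families. The common BCV ranged from 0.116 (without replicate 1) to 0.199. No paired analysis was possible because all 4 libraries belong to 1 group and no groups were compared. The planned ranking per kb was not run, since no transcript lengths were used here. Over the 4 libraries a count of 0 allows up to 0.0436 CPM. With 14524916 to 19498189 counts per library, genes under 1 CPM rest on few reads.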

Other observations

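Library contents that belong in no group comparison remain as values. Of the mitochondrial genes not given above, mt-Rnr1, the small ribosomal RNA, had 717 ± 96.2 CPM. The complex I genes mt-Nd1, mt-Nd5, mt-Nd4, mt-Nd2 and mt-Nd6 had 537 ± 76.5, 191 ± 18.7, 109.5 ± 16.3, 47.4 ± 6.33 and 46.9 ± 5.59 CPM. mt-Nd3 and mt-Nd4l, of the same complex, had 1.53 ± 0.0941 and 0.0143 CPM. Gas5, a noncoding host of small nucleolar RNAs, had 168, 191, 161 and 168 CPM, and 1700020I14Rik, a noncoding gene, 891, 607, 661 and 687 CPM.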
